A study of Neurospora crassa with 2 samples.

Results

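The genes described here are those whose transcript level was between 4-fold and 16-fold higher in a Neurospora crassa strain without ncw-1 than in a like strain that keeps ncw-1. They were chosen from a single table of RPKM, reads scaled by the length of the gene model and the size of the library. A gene was a member when it reached 10 RPKM in either library and its log2 ratio of RPKM + 1 was at least 2 and below 4. The 4 deleted genes were left out. This gave 145 members among 9730 genes, or 2.42% of the 5988 genes that reached 10 RPKM. By the same measure 4.68% of the 5988 were 2 to 4-fold higher, 0.985% were 16-fold or more higher, 8.08% were at least 2-fold higher and 11.1% were at least 2-fold lower. Because the same values chose the members, their direction and size are a description and not a finding.

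RNA was sequenced from mycelia of △3βG△ncw-1 and of △3βG, with 1 library each. In each strain 3 genes of β-glucosidases are deleted (gh3-4, gh3-3 and gh1-1), and △3βG△ncw-1 also lacks ncw-1, the gene of a non-anchored cell wall protein. The genotype label of each strain closes with a lower-case a. After a preculture of 20 h in MM the mycelia spent 4 h in Vogel's salts with 1% cellobiose. Single libraries allow neither a check against replicates nor a test of the genotypes, and all differences are given as values. Less RNA per cell and fewer cells of a kind cannot be told apart in such bulk samples.

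Neurospora, a filamentous ascomycete, secretes a large set of enzymes that break down plant cell walls, and cellobiose released from cellulose acts as a signal for their synthesis. The transcription factors CLR-1 and CLR-2 switch on cellulase genes and XLR-1 switches on xylanase genes. Strains without the main β-glucosidases cleave cellobiose slowly, so that soluble cellobiose induces these genes. Transporters in the plasma membrane carry cellodextrins and other sugars into the hypha, where further enzymes feed them into central metabolism.

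The libraries followed their labels for ncw-1 (NCU05137), with 2.62 RPKM in △3βG△ncw-1 against 435 RPKM in △3βG. They did not match in transcripts of mating type genes. The mat A gene matA-1 had 15.4 RPKM in △3βG△ncw-1 and was listed at 0 in △3βG, and the mat A pheromone gene ccg-4 had 87.9 RPKM in △3βG△ncw-1 and was listed at 0 in △3βG. Of the other mat A genes matA-2 was listed at 0 in both libraries, and matA-3 had 0.269 RPKM in △3βG△ncw-1 and 0 in △3βG. The mat a pheromone gene mfa-1 was detected in both libraries, with 35.0 RPKM in △3βG△ncw-1 and 141 RPKM in △3βG. What these values say of the mating type of either culture was not tested. Of 7 conidiation markers 3 were at least 2-fold lower, 1 was 2 to 4-fold higher and 3 were neither, and the hydrophobin gene eas had 1746 RPKM in △3βG△ncw-1 against 60350 RPKM in △3βG. The planned marker of perithecia, app (NCU04533), had 4.88 RPKM in △3βG△ncw-1 against 969 RPKM in △3βG. The part of any of these differences in the values of the members was not tested. The median gene that reached 10 RPKM had a log2 ratio of −0.32, so each member lies further from the median gene than from 0.

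The members held 9.37% of the reads in △3βG△ncw-1 and 1.16% of the reads in △3βG. Their median level was 59.2 RPKM in △3βG△ncw-1 (range 10.2 to 7666) and 7.14 RPKM in △3βG (range 0.137 to 1038). Much of this came from the 4 most abundant members: NCU04522, NCU08756, cdt-2 and NCU05853 carried 49.9% of the members' reads in △3βG△ncw-1 and 44.0% of them in △3βG. Without these 4 the members took 4.69% of the reads in △3βG△ncw-1 and 0.650% of the reads in △3βG. In △3βG△ncw-1, 14 members stood among the 100 genes of highest RPKM, against 4 in △3βG.

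**Figure D1:**
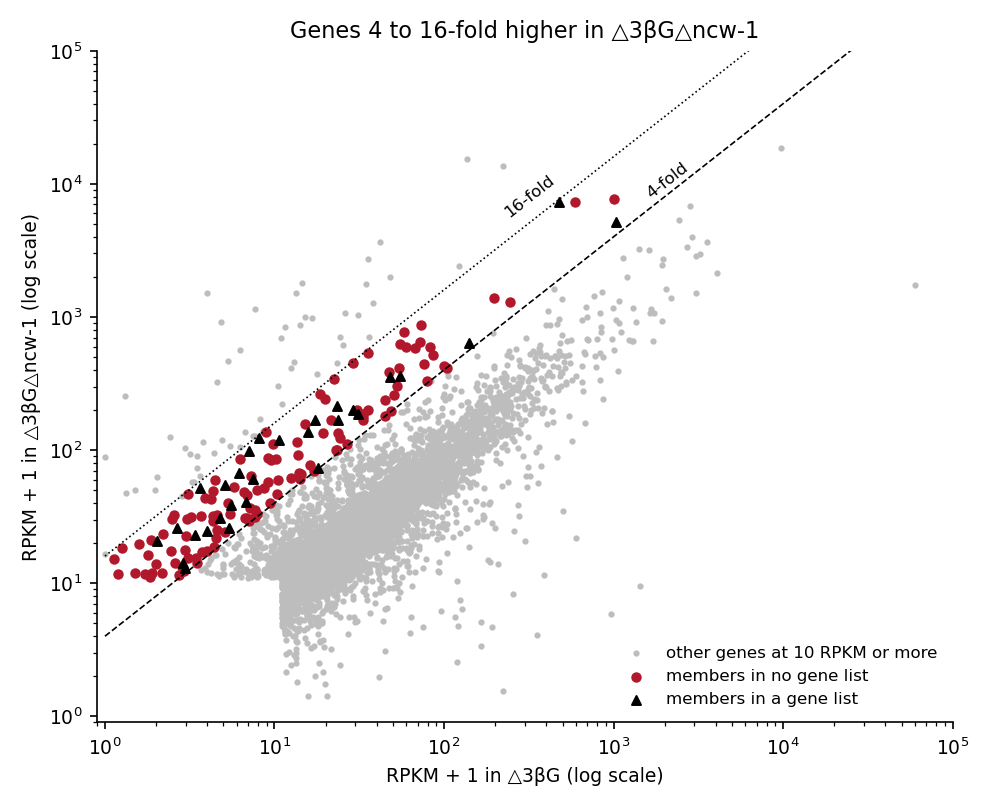
RPKM + 1 of every gene that reached 10 RPKM, with △3βG△ncw-1 on the vertical and △3βG on the horizontal log axis. Red points are the 116 members in no gene list and black triangles the 29 members in a list, all between the 4-fold (dashed) and 16-fold (dotted) lines; 84 of the 145 members were below 10 RPKM in △3βG.

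Of the 145 members 84 were below 10 RPKM in △3βG and passed the limit only by their level in △3βG△ncw-1, which fixed their direction. The other 61 were at 10 RPKM or more in both libraries, with a median of 239 RPKM in △3βG△ncw-1 and 32.4 RPKM in △3βG. Log2 ratios were spread toward the lower limit, with 52 members from 2 to 2.5, 40 from 2.5 to 3, 29 from 3 to 3.5 and 24 from 3.5 to 4. The median ratio differed little between levels, which the rule largely fixed by holding every member between 2 and 4. The added 1 RPKM also lowers the ratios of the lowest genes most, so nothing is read from this evenness. The median log2 ratio was 2.61 for the 43 members from 10 to 30 RPKM in △3βG△ncw-1, 2.79 for the 47 from 30 to 100 RPKM, 2.80 for the 28 from 100 to 300 RPKM, 2.93 for the 21 from 300 to 1000 RPKM and 2.88 for the 6 above that.

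Of the 145 members 29 (20%) were in one of the 16 gene lists used here, against 2.02% of the 5988 genes at 10 RPKM, and nothing is read from this because the lists were chosen with results of these data known. The other 116 were in no list, and 103 of those carried a locus tag as their sole name. No role is given to these 103 because the reference table pairs them with none. The 13 others had a gene symbol.

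Among these 13, fdh, gcy-3 and nit-6 had the highest levels in △3βG△ncw-1. The formate dehydrogenase gene fdh (NCU03813), whose product oxidises formate to carbon dioxide, had 412 RPKM in △3βG△ncw-1 and 53.3 RPKM in △3βG, a ratio of 7.74 (exact 95% counting interval 7.35 to 8.15). The nit-6 gene (NCU04720) of nitrite reductase, which acts in nitrate assimilation, had 99.5 RPKM in △3βG△ncw-1 and 22.3 RPKM in △3βG. The gcy-3 gene (NCU04510) had 331 RPKM in △3βG△ncw-1 and 78.6 RPKM in △3βG, close to the lower limit with a log2 ratio of 2.06. Each of fdh, gcy-3 and nit-6 was above the member median in each library.

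Sugar and polysaccharide enzymes outside the lists were lower. The invertase gene inv (NCU04265), whose product splits sucrose, had 23.3 RPKM in △3βG△ncw-1 and 4.13 RPKM in △3βG. The trehalose synthase gene ccg-9 (NCU09559), a clock-controlled gene, had 34.3 RPKM in △3βG△ncw-1 and 6.63 RPKM in △3βG. The asd-1 gene (NCU05598), which encodes a rhamnogalacturonase needed for ascus development, had 46.1 RPKM in △3βG△ncw-1 and 2.10 RPKM in △3βG. Its plain ratio of 22.01 (17.8 to 27.5) was above 16, and it stayed within the band because 1 RPKM was added to both values.

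The genes gh35-2, gh76-5 and gh47-3 have symbols of glycoside hydrolase families. Family 35 holds β-galactosidases, and gh35-2 (NCU04623) had 85.6 RPKM in △3βG△ncw-1 and 8.16 RPKM in △3βG. Family 76 holds α-mannanases that act on the fungal wall, and gh76-5 (NCU09937) had 62.8 RPKM in △3βG△ncw-1 and 6.22 RPKM in △3βG. Family 47 holds α-mannosidases that trim glycoproteins, and gh47-3 (NCU01059) had 59.2 RPKM in △3βG△ncw-1 and 13.1 RPKM in △3βG. The first and second of these were below 10 RPKM in △3βG, and gh47-3 was above it in both libraries.

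The remaining 4, which include signalling and stress genes, were low in △3βG. The cryptochrome gene cry (NCU00582), which encodes a blue-light photoreceptor, had 31.7 RPKM in △3βG△ncw-1 and 3.61 RPKM in △3βG. The kinase gene stk-44 (NCU06583) had 50.5 RPKM in △3βG△ncw-1 and 7.68 RPKM in △3βG. The glutathione S-transferase gene gst-4 (NCU10521) had 16.3 RPKM in △3βG△ncw-1 and 2.98 RPKM in △3βG. The last of the 13, fkr-3 (NCU04371), had 84.6 RPKM in △3βG△ncw-1 and 5.23 RPKM in △3βG. Each of these 4 passed 10 RPKM by its level in △3βG△ncw-1 alone.

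**Figure D2:**
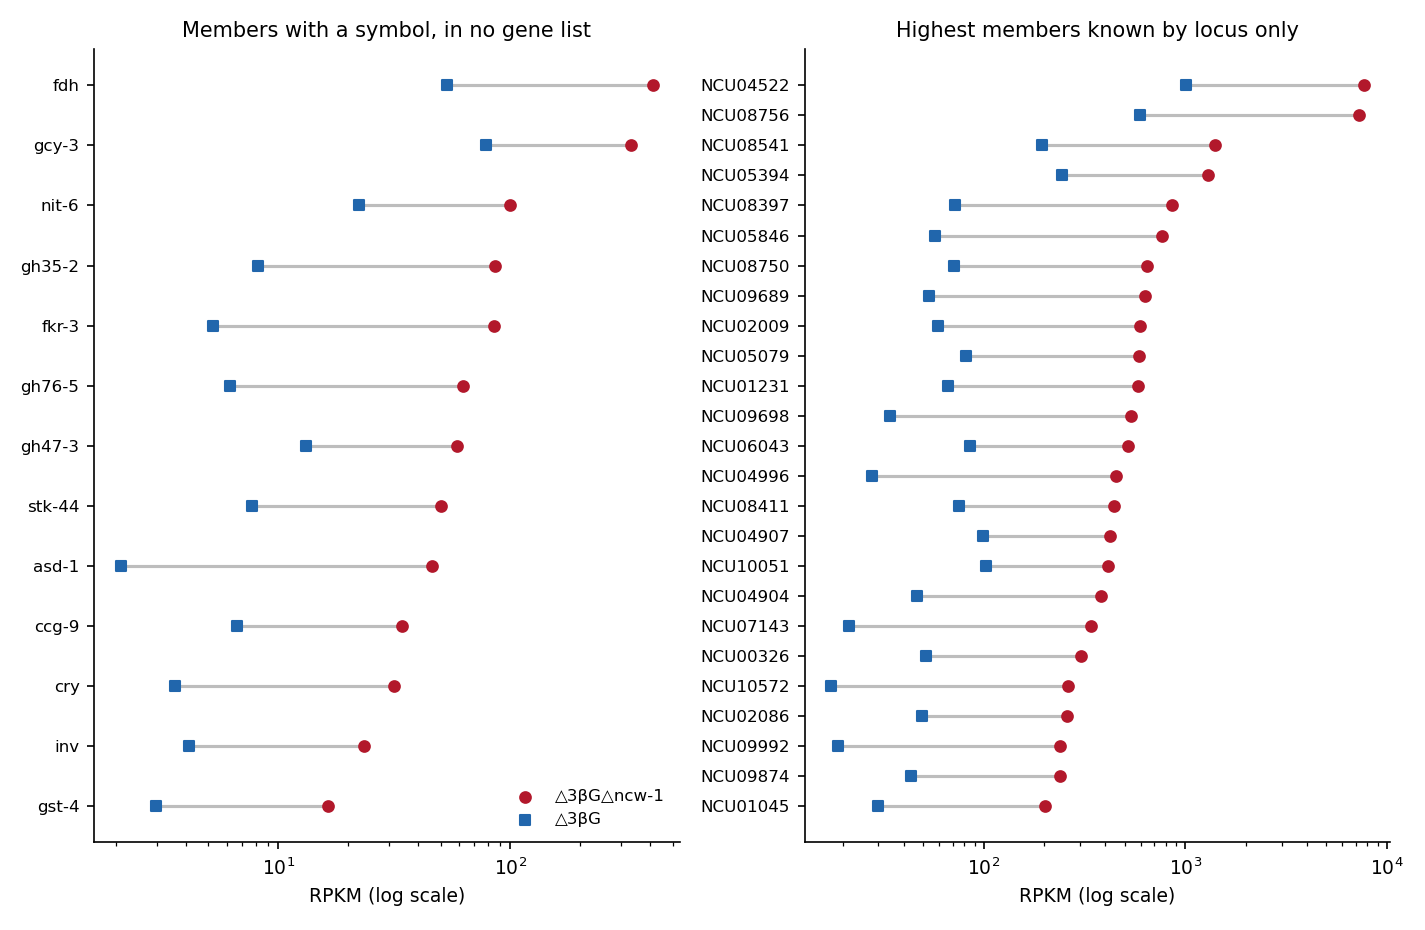
RPKM (log scale) in △3βG△ncw-1 (red circles) and △3βG (blue squares) for the 13 members with a symbol outside the gene lists (left) and for the 25 members with the highest RPKM in △3βG△ncw-1 among those known by locus only (right); each point is 1 library. The left panel runs from fdh (412 RPKM in △3βG△ncw-1, 53.3 RPKM in △3βG) down to gst-4 (16.3 RPKM in △3βG△ncw-1, 2.98 RPKM in △3βG), and the right panel from NCU04522 (7666 RPKM in △3βG△ncw-1, 1002 RPKM in △3βG) down to NCU01045 (200.2 RPKM in △3βG△ncw-1, 29.7 RPKM in △3βG).

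Of all members NCU04522 and NCU08756, both known by locus only, had the highest RPKM in △3βG△ncw-1. NCU04522 had 7666 RPKM in △3βG△ncw-1, where it ranked 4 among all genes, and 1002 RPKM in △3βG, where it ranked 38 (ratio 7.65, 7.56 to 7.75). NCU08756 had 7296 RPKM in △3βG△ncw-1, at rank 5, and 593 RPKM in △3βG, at rank 67 (ratio 12.3, 12.1 to 12.5). Among the members in no list NCU08541 came next, with 1396 RPKM in △3βG△ncw-1 and 194.8 RPKM in △3βG, and NCU05394 had 1300 RPKM in △3βG△ncw-1 and 245 RPKM in △3βG.

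Next in level came a set of loci that in △3βG lay above 29.4 RPKM, the median there of the 5988 genes. NCU08397 had 863 RPKM in △3βG△ncw-1 and 72.0 RPKM in △3βG, and stood at rank 66 in △3βG△ncw-1 against rank 1156 in △3βG. NCU05846 had 767 RPKM in △3βG△ncw-1 and 57.3 RPKM in △3βG. NCU08750 had 648 RPKM in △3βG△ncw-1 and 71.0 RPKM in △3βG. Similar levels were seen for NCU09689, with 627 RPKM in △3βG△ncw-1 and 53.8 RPKM in △3βG, and for NCU02009, with 596 RPKM in △3βG△ncw-1 and 59.0 RPKM in △3βG.

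Loci with like levels in △3βG△ncw-1 differed in how low they were in △3βG. NCU09698 had 539 RPKM in △3βG△ncw-1 and 34.4 RPKM in △3βG, near the upper limit with a log2 ratio of 3.93. NCU06043 had 522 RPKM in △3βG△ncw-1 and 85.5 RPKM in △3βG, with a log2 ratio of 2.59. NCU04996 had 451 RPKM in △3βG△ncw-1 and 27.9 RPKM in △3βG, and its log2 ratio of 3.97 was the highest of all members. NCU10051 had 415 RPKM in △3βG△ncw-1 and 103 RPKM in △3βG, and its log2 ratio of 2.003 was the lowest.

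Of the 103 loci without a symbol, 25 were at 200.2 RPKM or more in △3βG△ncw-1, and all 25 exceeded 10 RPKM in △3βG as well. Another 15 were between 109 and 199 RPKM in △3βG△ncw-1, with 7.89 to 47.4 RPKM in △3βG, and only 2 of them were below 10 RPKM in △3βG. A further 30 were between 30.5 and 99.5 RPKM in △3βG△ncw-1 and between 1.57 and 22.2 RPKM in △3βG. The remaining 33 were between 10.2 and 29.9 RPKM in △3βG△ncw-1 and between 0.137 and 6.08 RPKM in △3βG, so all 33 passed through △3βG△ncw-1 alone.

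At the lower limit the nearest members inside were NCU10051, NCU01140, NCU09652 and NCU06277, with log2 ratios from 2.003 to 2.02. The nearest genes outside were gh16-1, ccg-13, NCU04910 and NCU16802, from 1.97 to 1.98. At the upper limit NCU04996, NCU05841, cdt-2 and NCU09698 lay inside, from 3.93 to 3.97, and NCU03756, NCU01861, gh45-1 and matA-1 lay outside, from 4.00 to 4.04. Below the 10 RPKM limit the xylanase gene gh10-3 would have been a member, with 9.86 RPKM in △3βG△ncw-1 and 0.218 RPKM in △3βG.

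The 3 regulator genes in the band were clr-2, xlr-1 and vib-1, out of 10 regulators of plant cell wall degradation, all of which reached 10 RPKM. The cellulase activator gene clr-2 (NCU08042) had 123 RPKM in △3βG△ncw-1 and 7.14 RPKM in △3βG (ratio 17.2, 15.7 to 18.9). The xylanase activator gene xlr-1 (NCU06971) had 198 RPKM in △3βG△ncw-1 and 27.96 RPKM in △3βG (ratio 7.08, 6.75 to 7.43). The vib-1 gene (NCU03725), whose product acts in heterokaryon incompatibility and cellulase induction, had 184 RPKM in △3βG△ncw-1 and 29.96 RPKM in △3βG. The 3 ended at similar levels in △3βG△ncw-1, while clr-2 was lower than the others in △3βG. Of the other 7, 2 were 2 to 4-fold higher, 4 were within 2-fold and 1 was at least 2-fold lower.

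The lists of cellulases, of monooxygenases with cellobiose dehydrogenases, and of hemicellulases with esterases together gave 14 members. A single cellulase gene of 7 at 10 RPKM was a member, against 6 that were 16-fold or more higher. It was gh7-2 (NCU04854), with 39.7 RPKM in △3βG△ncw-1 and 5.75 RPKM in △3βG. Lytic polysaccharide monooxygenases cleave cellulose oxidatively with electrons from cellobiose dehydrogenase. Of 12 genes in the joint list of these monooxygenases and cellobiose dehydrogenases, 4 were members, 7 were 16-fold or more higher and 1 was at least 2-fold lower. The 7 include the cellobiose dehydrogenase gene cdh-1. Of 21 hemicellulase and esterase genes 9 were members, 10 were 16-fold or more higher, 1 was 2 to 4-fold higher and 1 was within 2-fold.

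The 4 monooxygenase genes differed in level by nearly an order of magnitude. The gh61-6 gene (NCU03328) had 167 RPKM in △3βG△ncw-1 and 22.8 RPKM in △3βG, and gh61-9 (NCU05969) had 135 RPKM in △3βG△ncw-1 and 14.8 RPKM in △3βG. The gh61-2 gene (NCU07760) had 24.8 RPKM in △3βG△ncw-1 and 1.68 RPKM in △3βG, and NCU02344 had 22.04 RPKM in △3βG△ncw-1 and 2.39 RPKM in △3βG. Among the 9 hemicellulase members the xylanase gene gh11-1 (NCU02855) had 53.9 RPKM in △3βG△ncw-1 and 4.12 RPKM in △3βG. The gh2-1 gene (NCU00890) had 37.4 RPKM in △3βG△ncw-1 and 4.55 RPKM in △3βG. The other 7 members of this list ran from 12.0 RPKM in △3βG△ncw-1 for NCU00710 to 168 RPKM for NCU02343, against 1.99 and 16.3 RPKM in △3βG. The 14 members of the cellulase, monooxygenase and hemicellulase lists together took 0.195% of the reads in △3βG△ncw-1 and 0.0214% of the reads in △3βG. Pectin degradation genes are not part of these shares.

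The 5 sugar transporter members held far more, at 2.45% of the reads in △3βG△ncw-1 and 0.283% of the reads in △3βG. The cellodextrin transporter gene cdt-2 (NCU08114) had 7276 RPKM in △3βG△ncw-1 and 476 RPKM in △3βG (ratio 15.3, 15.1 to 15.5). NCU05853 had 5194 RPKM in △3βG△ncw-1 and 1038 RPKM in △3βG, which was the highest level of any member in △3βG. The other 3 were NCU05897, NCU00988 and NCU06138, with 357, 214 and 29.7 RPKM in △3βG△ncw-1 against 53.8, 22.3 and 3.78 RPKM in △3βG. Of 14 transporter genes at 10 RPKM, 1 was 16-fold or more higher, 3 were 2 to 4-fold higher, 4 were within 2-fold and 1 was at least 2-fold lower.

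Further lists contributed 1 to 3 members each. The alcohol dehydrogenase gene adh-1 (NCU01754) was the single member among 11 glycolysis and fermentation genes, with 636 RPKM in △3βG△ncw-1 and 140 RPKM in △3βG, while 3 others were 2 to 4-fold higher and 7 were within 2-fold. The xylose reductase gene xr (NCU08384), which opens pentose catabolism, was the single member of 5 genes, with 98.3 RPKM in △3βG△ncw-1 and 6.09 RPKM in △3βG; 2 others were 2 to 4-fold higher and 2 were within 2-fold. Of the 7 genes at 10 RPKM in the pectin degradation list, 3 were members (NCU10045, NCU08176 and NCU06326), 3 were 2 to 4-fold higher and 1 was within 2-fold. The rhamnogalacturonase gene asd-1, described above, was not in this list. NCU10045 had 60.0 RPKM in △3βG△ncw-1 and 6.52 RPKM in △3βG. Of the 3 genes listed for the use of cellobionic acid, the oxidation product of cellobiose, 2 were members, NCU05853 and NCU09425. The other was cdh-1, which was 16-fold or more higher and is also counted in the joint list of monooxygenases and cellobiose dehydrogenases. NCU09425 had 351 RPKM in △3βG△ncw-1 and 46.7 RPKM in △3βG. Among 7 heat shock and oxidative stress genes the catalase gene cat-3 (NCU00355) was the single member, with 25.02 RPKM in △3βG△ncw-1 and 4.37 RPKM in △3βG, while 1 other was 2 to 4-fold higher and 5 were within 2-fold.

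**Figure D3:**
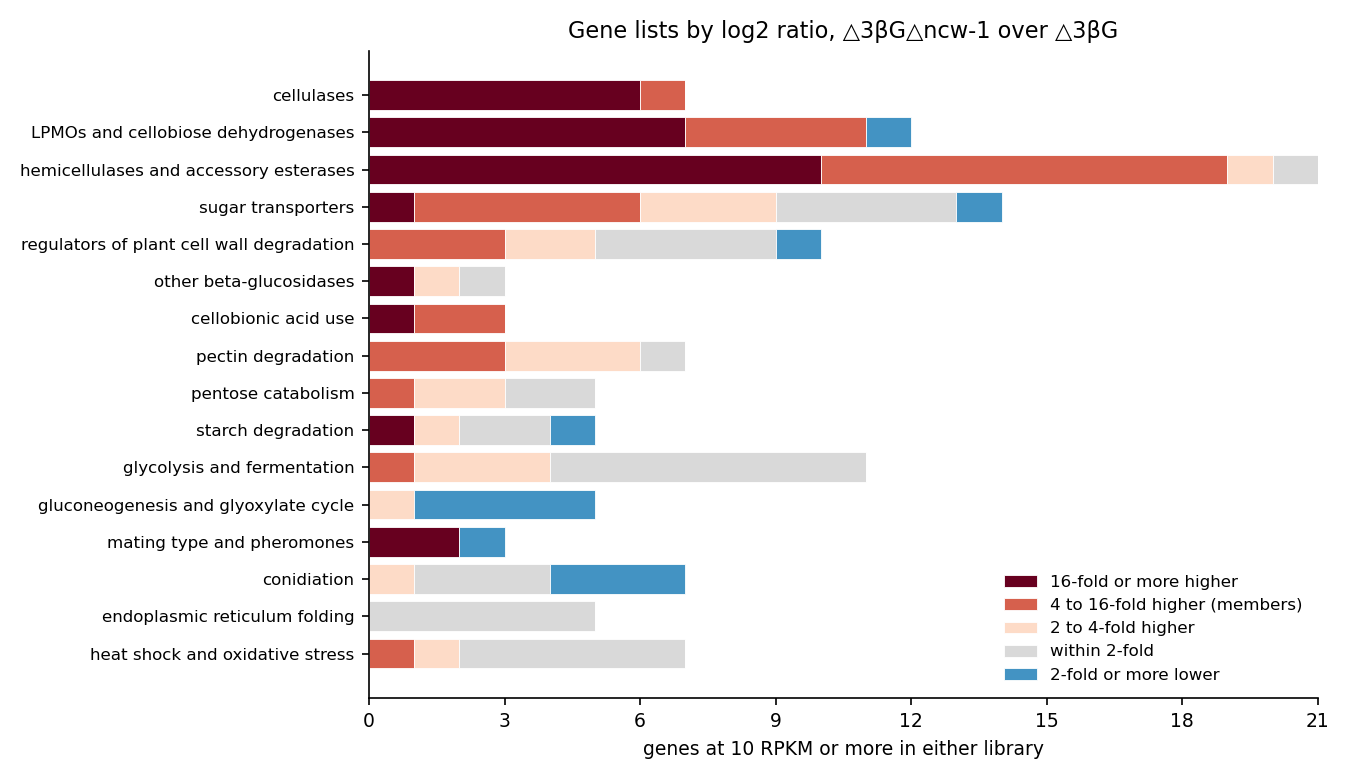
Number of genes at 10 RPKM or more in each of the 16 gene lists, stacked by the log2 ratio of RPKM + 1, △3βG△ncw-1 over △3βG; the members are the second shade. Of the cellulases 6 of 7 were 16-fold or more higher and 1 was a member, whereas of the 10 regulators 0 were 16-fold or more higher and 3 were members.

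The other 6 lists held no member. Of 3 remaining β-glucosidase genes 1 was 16-fold or more higher, 1 was 2 to 4-fold higher and 1 was within 2-fold. Of 5 starch degradation genes 1 was 16-fold or more higher, 1 was 2 to 4-fold higher, 2 were within 2-fold and 1 was at least 2-fold lower. In the gluconeogenesis and glyoxylate cycle list 4 of 5 genes were at least 2-fold lower and 1 was 2 to 4-fold higher, and all 5 genes for folding in the endoplasmic reticulum were within 2-fold. Neither list thus had a gene in the band. The conidiation list and the mating list, in which 2 genes were 16-fold or more higher and 1 was at least 2-fold lower, also held no member. The lists were chosen with results of these data known, so their counts are not set against the 2.42% of all genes as evidence of anything particular to them.

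In these libraries other higher genes lay beside a larger share of members than of genes in general. In the gene order of the reference annotation 16 of the 145 members (11.0%) had another member beside them, against 2.86% of 5987 genes at 10 RPKM. A gene that was 16-fold or more higher lay beside 13 members (8.97%), against 1.10% of those genes. Genes at 10 RPKM held 171 of the places directly beside members, and in 61 of these places (35.7%) the gene was at least 2-fold higher in △3βG△ncw-1, against 7.38% of the 8170 such places beside genes in general. In 7 places (4.09%) the gene was at least 2-fold lower, against 10.9%. The median log2 ratio over the places was 0.39 beside members, against −0.33. A flanking gene was counted if it reached 10 RPKM in either library. Those below 10 RPKM in △3βG were thus counted only by their level in △3βG△ncw-1, which fixed their direction. This holds beside members and beside genes in general. A gene that lies between 2 of the genes counted fills 2 places, a pair of adjacent members counts in both directions, and neighbours share genomic position, so no test was made.

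The shares were highest in the places directly beside members. In the place before a member 33.3% of 78 genes were at least 2-fold higher and in the place after it 37.6% of 93 genes. At places 2 to 5 on either side the share ran from 11.8% to 18.9%, and around genes in general it ran from 6.82% to 7.44% at every place. Strand is not given in the sources used here for counting, so reads of overlapping or antisense genes may not be separated. The spans of 25 members (17.2%) overlapped a neighbour, against 25.6% of all genes at 10 RPKM. Among the 120 members that overlapped no neighbour, 34.1% of 138 flanking places held a gene at least 2-fold higher, against 8.14% beside all genes that overlap no neighbour.

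**Figure D4:**
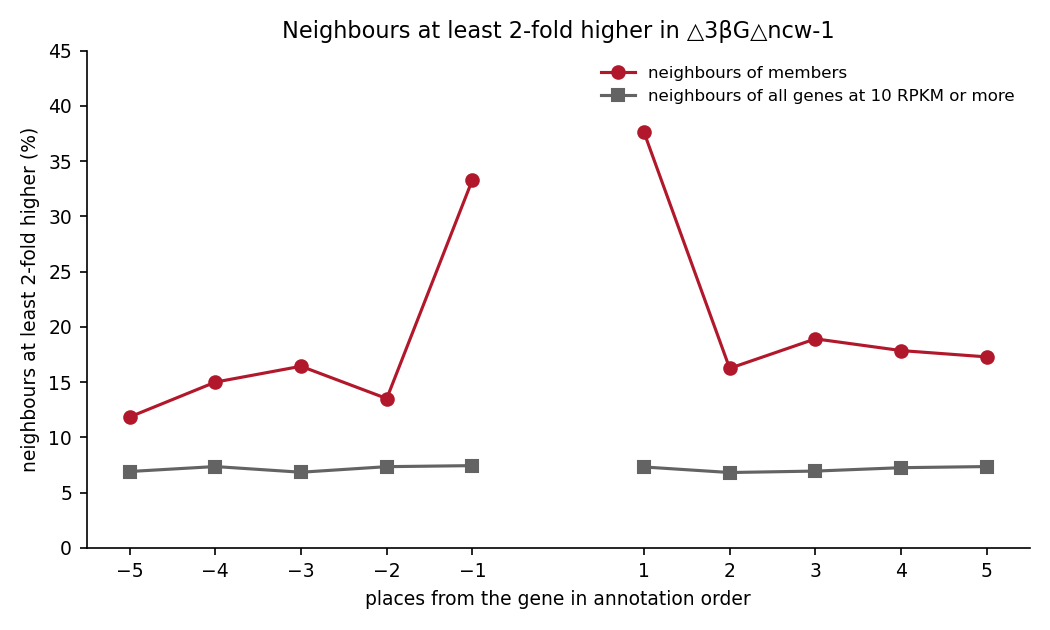
Share of genes at 10 RPKM or more that were at least 2-fold higher in △3βG△ncw-1, by their place from a member (red circles) or from any gene at 10 RPKM (grey squares) in annotation order; lines join places on the same side. The share is 33.3% and 37.6% in the places beside members and 11.8% to 18.9% further out, against about 7% around genes in general.

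Several of these neighbours were the major cellulase genes. NCU07339 lay beside cbh-1 and had 58.3 RPKM in △3βG△ncw-1 and 3.43 RPKM in △3βG, whereas cbh-1 had 13724 RPKM in △3βG△ncw-1 and 222 RPKM in △3βG. NCU09681 lay beside the cellobiohydrolase gene gh6-2 and had 109 RPKM in △3βG△ncw-1 and 25.9 RPKM in △3βG. NCU00763 lay beside the endoglucanase gene gh5-1 and had 10.7 RPKM in △3βG△ncw-1 and 0.188 RPKM in △3βG. In these 3 pairs the member had a small fraction of the RPKM of its neighbour in △3βG△ncw-1, and the spans did not overlap. NCU07899 lay beside NCU07898 of the monooxygenase list, with 38.7 RPKM in △3βG△ncw-1 and 8.36 RPKM in △3βG. NCU08411 lay beside NCU08412 of the hemicellulase list, and its 441 RPKM in △3βG△ncw-1 and 74.98 RPKM in △3βG were of the same order as its neighbour's 1035 RPKM in △3βG△ncw-1 and 29.99 RPKM in △3βG.

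Pairs of adjacent members were 8 in number. The largest difference in level was between cdt-2 and its neighbour NCU08113, which had 10.9 RPKM in △3βG△ncw-1 and 1.17 RPKM in △3βG. NCU05853 lay beside NCU05854, with 51.8 RPKM in △3βG△ncw-1 and 4.76 RPKM in △3βG, which in turn overlapped NCU05855. The monooxygenase gene gh61-9 lay beside NCU10045 of the pectin list, and NCU02344 of the monooxygenase list beside NCU02343 of the hemicellulase list. The remaining pairs were NCU00321 with NCU00322, NCU05069 with NCU05068, NCU10107 with NCU04400, and NCU10883 with NCU05138. Of the 8 pairs, NCU05069 and NCU05068 were the one whose spans overlapped. With members up to 3 places apart joined there were 13 groups of neighbours holding 28 members, and the largest groups held 3, such as NCU00321, NCU00322 and NCU00326. Groups were not counted for genes in general, so nothing is read from this number.

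Among the genes on either side of the 4 deleted genes 3 were members, and nothing is read from this count because so few places were open. NCU05138 overlapped the span of ncw-1, and it had 22.4 RPKM in △3βG△ncw-1 and 1.20 RPKM in △3βG (ratio 18.6, 13.7 to 26.1) while ncw-1 itself was at 2.62 RPKM in △3βG△ncw-1 against 435 RPKM in △3βG. The gene on the other side of ncw-1, NCU05136, had 318 RPKM in △3βG△ncw-1 and 232 RPKM in △3βG. NCU08756, described above, lay beside gh3-3, and NCU04953 lay beside gh3-4 with 48.8 RPKM in △3βG△ncw-1 and 6.88 RPKM in △3βG. On the other sides of gh3-3 and gh3-4 lay NCU08753 and NCU04951, which were not members, with log2 ratios of 0.30 and 1.13. Neither gene beside gh1-1 was a member, with log2 ratios of −0.20 for NCU16661 and 1.11 for NCU00132. The genes gh3-3 and gh3-4 are deleted in both strains, so their loci do not differ between the genotypes by label, whereas that of ncw-1 does.

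Depth set how well each ratio was known. Recovered reads of the members ran from 94 to 293641 in △3βG△ncw-1 (median 2252) and from 3 to 34611 in △3βG (median 291). The exact counting interval of the plain RPKM ratio lay wholly between 4 and 16 for 104 of the 145 members. It reached below 4 for 8 members, at the lowest to 3.52 for NCU16529, and reached 16 or more for 33. The 9 members with under 20 reads in △3βG had wide intervals, as for NCU04400, whose ratio of 103 ran from 35.1 to 505 on 303 reads in △3βG△ncw-1 and 3 reads in △3βG. Variation between cultures is not part of these intervals, which reflect read counting alone.

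**Figure D5:**
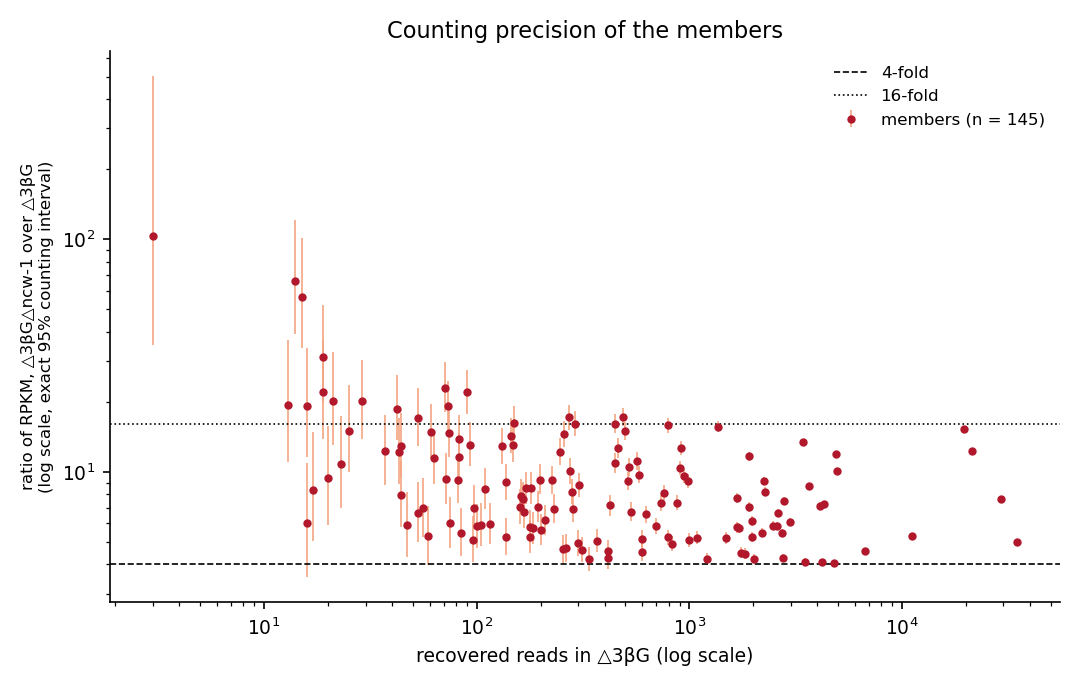
Plain ratio of RPKM, △3βG△ncw-1 over △3βG, with its exact 95% counting interval (bars) against the recovered reads in △3βG, both on log axes, for the 145 members; lines mark 4-fold and 16-fold. Intervals narrow to the right, and the 19 members above the 16-fold line entered the band through the added 1 RPKM.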

How the data were processed

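Per the labels' protocols, total RNA of filtered, frozen mycelia was extracted with TRIzol, cleaned on RNeasy columns and made into libraries by standard Illumina protocols. The authors deposited RPKM values in 1 table per the file headers, 1 column per library, with 0 unused columns of values. The submitters' processing notes name DESeq 1.5.1, HTSeq 0.5.4p2 and TopHat2 2.0.8b without saying what each did. The genome build, the annotation and the strand setting: not given in the sources used here. Of 9730 locus tags 9729 were found in a RefSeq gene table for assembly NC12, which was used for symbols, gene order and spans. Gene order took protein-coding genes, and 5987 of the 5988 genes at 10 RPKM were placed.

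Whole reads were recovered from the steps of RPKM times gene span, which gave library totals of 20019350 reads (△3βG△ncw-1) and 20510798 reads (△3βG). A model length from 50% of the span to the span gave whole reads in both libraries, within 1e-06 reads plus 1e-09 of the read number, for all 9264 genes tried. For 140 of the 145 members this length was single; for the other 5 (NCU04996, NCU02086, NCU09652, cat-3 and NCU04400) the smallest was used, which widens the interval. Intervals are exact Clopper-Pearson intervals at 95%, computed with scipy 1.17.1. The procedure was tested on simulated reads with counting error alone and model lengths inside the range searched. Such a test cannot show how the procedure fares with the real gene models or with variation between cultures. Reads are not independent molecules, so intervals cover counting error only.

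The members and the 16 gene lists were chosen with earlier results of these data known, and the placing of loci without a symbol in a list rests on knowledge of the field and not on the reference table. Named genes were the members with a symbol or in a list, the members outside the lists with the highest levels or the highest and lowest ratios, those nearest the limits and those beside other members or deleted genes. Level ranges, overlap of spans and the places around members were added after the values had been seen. Planned shares of promoter motifs and protein features were not run, because no sequence was used here. Alternatives were other pseudocounts, minimum values and scalings.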

Additional observations from a re-analysis of the deposited data

How the results depend on the processing

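The limits of this comparison are 1 library per genotype, a difference between the libraries in mating type transcripts, and a pseudocount that decides which low genes fall in the band. No paired analysis was possible because each genotype has 1 library, and no replicate could be left out. The number of members, 145, was 149 with 0.1 RPKM added, 148 with no addition (a setting added after seeing the data), 117 with 5 RPKM added, 164 with no minimum, 161 with a 5 RPKM minimum, 80 with a 50 RPKM minimum, 139 with RPKM scaled to equal sums, 205 with log2 ratios centred on the median gene and 216 with trimmed mean scaling. Of the 145 members 130 stayed in the band under centring and under trimmed mean scaling, 135 under equal sums, 128 with 0.1 RPKM added, 126 with no addition and 92 with 5 RPKM added. The median log2 ratio of the 145 members, 2.76, was 2.94 with 0.1 RPKM added, 2.97 with no addition, 2.19 with 5 RPKM added, 2.71 under equal sums and 3.08 under both other scalings. The lowest log2 ratio of a member under these settings was 1.20, with 5 RPKM added. None of these settings could change a sign, because the members were chosen at 2 or more and an addition to both values keeps the direction. The scalings shifted log2 ratios by −0.057 (equal sums) to 0.33 (trimmed mean scaling). Genes at least 2-fold higher made up 42.2% of all genes past 2-fold as deposited, 66.3% under centring and 66.8% under trimmed mean scaling. Relative to the median gene, 38.6% of the places beside members held a gene at least 2-fold higher, against 10.6% around genes in general (added after seeing the data). With genes below 10 RPKM removed from the gene order, 16.6% of members lay beside another member, against 4.66% of genes in general. The causes of these shifts were not tested beyond the construction of each setting.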

Other observations

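The gene models of members were somewhat shorter than those of genes in general. The median recovered model length was 1946 bases for the 140 members with a single solution and 2252 bases for 5486 genes at 10 RPKM. Gene symbols were no rarer among members (17.9% of 145) than among all genes at 10 RPKM (15.4%), and were at 37.3% of the 59 genes that were 16-fold or more higher. The genes 2 to 4-fold higher, 280 in number, had a median of 46.6 RPKM in △3βG△ncw-1 and 17.2 RPKM in △3βG, and 32.9% of them were below 10 RPKM in △3βG. Among the members that share was 57.9%, and among the genes 16-fold or more higher it was 59.3%. The bands are set by the ratio to △3βG, so a larger share in a higher band follows in part from the rule.

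The members with a symbol whose span overlaps a neighbour were adh-1, xr, gh2-1, cry, inv, gst-4 and gcy-3, and how reads in the overlap were counted is not given in the sources used here. One such neighbour is NCU00891 of the pentose list, which overlaps gh2-1. NCU00891 had 37.7 RPKM in △3βG△ncw-1 and 9.19 RPKM in △3βG.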
